A study of Mus musculus with 4 samples.

Results

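miR-511 is a microRNA (miRNA) made from an intron of Mrc1, the gene of the macrophage mannose receptor. Its 2 mature strands, mmu-miR-511-5p and mmu-miR-511-3p, were read from a small RNA sequencing table of resting mouse bone marrow-derived macrophages (BMDMs), where they are 2 of 1979 mature miRNAs and were picked by name. The libraries came from cultures of wild-type mice (2 libraries, WT A and WT B), of mir-146a-deficient mice (1 library, KO) and of mice homozygous for the 3′F allele (1 library, 3′F). In the 3′F allele the 3′ part of the miR-146a duplex is exchanged between its strands and the seed is kept. All animals were of mixed 129/B6 background, 6 to 7 months old, and the labels name 3 mice of each genotype without stating how many went into a library. Marrow cells were plated at 85000 cells per cm2, grown for 8 to 9 days in 10 ng/ml M-CSF, and taken 16 h after a change to fresh medium without LPS. Both mir-146a alleles are germline changes on chromosome 11, so they are present in every cell of the culture, and the miR-511 locus on chromosome 2 was not targeted.

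A miRNA hairpin is cut by Drosha and Dicer into a short duplex, and one strand of it is usually retained in an Argonaute protein while the other is degraded. The retained strand finds its target mRNAs mainly through its seed, bases 2 to 8 from the 5′ end. Mrc1 encodes an endocytic receptor for mannosylated glycans that is used as a marker of tissue macrophages and of alternatively activated macrophages, and an intronic miRNA can be made from the same primary transcript as its host mRNA. miR-511 is best known from macrophages and dendritic cells, and in mouse macrophages the 3p strand has been studied as the active one.

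On GRCm38 the hairpin is annotated as Mir511 (ENSMUSG00000077897.1), a 79-nt stretch of chromosome 2, plus strand, between positions 14261003 and 14261081. The hairpin is inside intron 5 of the 29 introns in the coding transcript of Mrc1 (ENSMUSG00000026712.3, plus strand, 14229392 to 14332057), on the same strand as the host. The intron spans 4071 bp, and the hairpin sits near its 3′ end, 3885 bp after the upstream exon and 107 bp before the downstream exon. The other miRNA genes annotated in Mrc1 or within 10 kb of the hairpin number 0, and the nearest other RefSeq hairpin, Mir6419, is 3302433 bp away. The mature 3p strand occupies positions 14261051 to 14261072.

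The sequences below show which strand the counts belong to, where it sits in the hairpin, and how its seed compares with those of other miRNAs. They are RefSeq sequences for GRCm38.p6, written 5′ to 3′. Capitals mark the mature 3p strand in the hairpin, the seed in miR-511-3p, and bases 2 to 7 in the other pair of miRNAs.
mir-511 hairpin: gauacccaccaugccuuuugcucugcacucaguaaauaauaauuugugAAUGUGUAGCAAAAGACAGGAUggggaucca
miR-511-3p: aAUGUGUAgcaaaagacaggau
miR-1187: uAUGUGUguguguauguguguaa
miR-1198-5p: uAUGUGUuccuggcuggcuugg

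miR-511-3p is bases 49 to 70 of the hairpin, and the letters of miR-511-5p are not printed here. The hairpin folds with a predicted minimum free energy of -27.4 kcal/mol in RNAfold. In that fold 18 of the 22 bases of the 3p strand are paired, 5 of them among the 7 seed bases. GC content is 41.8% over the hairpin and 36.4% over the 3p strand. Of 1679 mature miRNAs in the RefSeq table, 0 others carry the full 7-base seed of miR-511-3p. miR-1187 and miR-1198-5p share its bases 2 to 7 and differ from it at base 8. miR-1187 had between 0.19 and 0.66 RPM (reads per 1000000 counts of a library) and has fractional counts, which show that its reads were shared with other lines. miR-1198-5p was read at 1062 RPM in WT A and 1384 in WT B, and at 1085 in KO and 1027 in 3′F, between 13.4 and 21.1 times the level of miR-511-3p in the same library.

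The libraries held between 11410940 and 19087640 counts, and 3 counts correspond to between 0.157 and 0.263 RPM. The targeted gene followed the labels, with 5485 to 6253 RPM of miR-146a-5p in the WT libraries against 13.4 in KO and 6.64 in 3′F. The 3′F strand differs from miR-146a-5p in its 3′ part, so its low value here is not a loss of expression. By qRT-PCR the paper found the 3′F miRNA at levels similar to wild type in most of the tissues and cells tested. KO and 3′F have 1 library each, so nothing measures how far a second culture of these genotypes would differ, and differences from WT are given without a test. The 95% intervals printed here are of counting error alone. Amplified reads do not stand for separate molecules, and counting says nothing of the spread between cultures. The authors state that ligation efficiency varies with the sequence of a short RNA, sometimes by orders of magnitude and not predictably. This bears on every comparison of levels between different miRNAs or between the strands of a hairpin, but not on 1 strand compared across libraries.

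miR-511-3p was read at moderate and similar levels in all 4 libraries. It had 1311 counts in WT A, or 76.8 RPM (Wilson interval 72.7 to 81.1). In WT B it had 749 counts, or 65.6 RPM (61.1 to 70.5). The KO library had 1543 counts, or 80.8 RPM (76.9 to 85.0), and the 3′F library 1075 counts, or 66.4 RPM (62.5 to 70.5). The WT level was 71.2 ± 7.88 RPM (SD, n = 2 cultures). The highest library, KO, was thus 1.23-fold above the lowest, WT B, with WT A close to KO and 3′F close to WT B. All its counts are whole numbers on a single line, so they show no sign of reads shared with another miRNA.

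miR-511-5p, the other strand, was rare in each library. Its counts were 37 in WT A and 18 in WT B, and 53 in KO and 19 in 3′F, also on 1 line with whole counts. Its levels were 2.17 RPM in WT A (Wilson interval 1.57 to 2.99) and 1.58 in WT B (0.998 to 2.49), a WT level of 1.88 ± 0.417 RPM (SD, n = 2 cultures). It was at 2.78 RPM in KO (2.12 to 3.63) and at 1.17 RPM in 3′F (0.751 to 1.83). KO was the highest library and 3′F the lowest, 2.38-fold apart, and the intervals of these libraries do not overlap each other, while each overlaps those of both WT libraries.

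**Figure D1:**
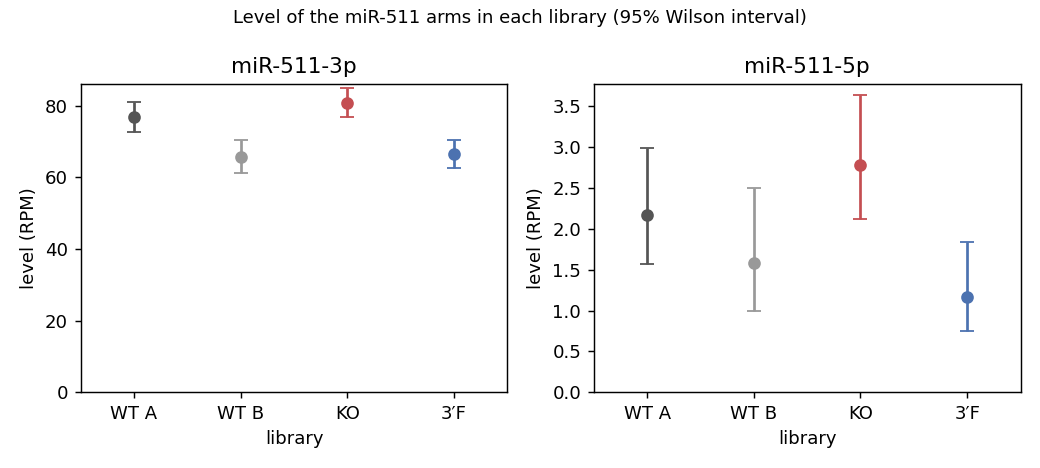
Level in RPM of miR-511-3p (left) and miR-511-5p (right) in the WT A, WT B, KO and 3′F libraries, with 95% Wilson intervals of the counts as bars and both axes starting at 0. The 3p strand lies between 65.6 and 80.8 RPM in all libraries, and the 5p strand between 1.17 and 2.78 RPM with wide intervals.

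Ordered by level, miR-511-3p ran from KO through WT A and 3′F to WT B. KO over WT A was 1.05-fold, with an exact interval from the counts of 0.977 to 1.13, and these neighbors did not differ beyond counting error. 3′F over WT A was 0.864-fold (0.797 to 0.938). This step exceeds counting error but is smaller than that between the WT cultures, where WT B over WT A was 0.855-fold (0.780 to 0.936). 3′F over WT B was 1.01-fold (0.920 to 1.11).

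Among all 1979 miRNAs, miR-511-3p had ranks 136 and 145 in WT A and WT B, and ranks 135 and 137 in KO and 3′F, above 92.7% to 93.2% of them. Between 897 and 941 miRNAs were above 0 in a library. The ranks of miR-511-5p lay farther apart, at 326 (KO), 351 (WT A), 391 (WT B) and 415 (3′F). miR-21a-5p, the most abundant miRNA, was between 4127 and 5339 times higher than miR-511-3p. Expressed miRNAs are those that averaged 10 RPM or more across all libraries, and there were 251 of them. Of the 2 strands, the 3p strand passed and the 5p strand, with a mean of 1.93 RPM, did not.

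**Figure D2:**
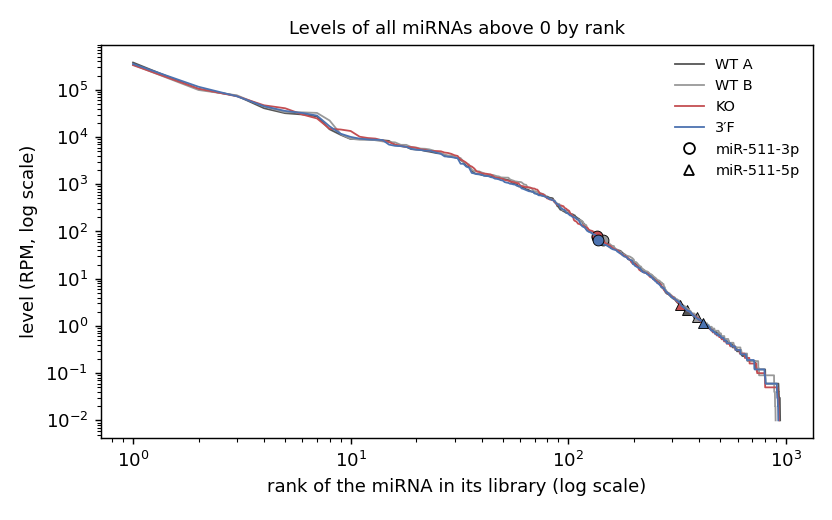
Level in RPM of every miRNA above 0 against its rank in its library, both on log scales, with 1 line per library, circles for miR-511-3p and triangles for miR-511-5p. The 3p strand sits at ranks 135 to 145 in all libraries, and the 5p strand at ranks 326 to 415.

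By mean level, the miRNAs next above miR-511-3p were miR-362-3p (79.3 RPM), miR-504-5p (74.6) and miR-574-3p (73.5), and those next below were miR-330-5p (70.4), miR-32-5p (69.2) and miR-322-5p (65.5). The ranges over the 4 libraries of all 6 overlap that of miR-511-3p, and so do those of 25 miRNAs in all, at mean ranks 117 to 174, miR-146a-5p left out. miR-322-5p was below miR-511-3p in each of the 4 libraries, and the other 5 were above it in some and below it in others. Around miR-511-5p, a mean of 1.93 RPM was shared with miR-7118-3p, and miR-1191b-5p (1.99) and miR-5114 (2.01) stood above. miR-8111 (1.92), miR-155-3p (1.92) and miR-935 (1.90) stood below. Of the other miRNAs, 149 had a range that overlaps that of miR-511-5p, so its place in the order is loose.

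The 3p strand made up nearly all of the miR-511 counts in every library. Its share of the counts of both strands was 97.3% in WT A (Wilson interval 96.2% to 98.0%) and 97.7% in WT B (96.3% to 98.5%), or 97.5% ± 0.281 in WT (SD, n = 2 cultures). It was 96.7% in KO (95.7% to 97.5%) and 98.3% in 3′F (97.3% to 98.9%). The library scaling cancels in this share. Both mutants lay outside the WT values, KO below and 3′F above, and their intervals overlap each other and those of both WT libraries.

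As a ratio, 3p over 5p was 35.4 and 41.6 in WT A and WT B, with 29.1 for KO and 56.6 for 3′F. Summed over the libraries it was 4678 counts to 127, a ratio of 36.8 (30.9 to 43.9). This is a ratio of reads of different sequences, which ligation can shift, so the ratio in the cells was not measured. The log2 ratio spread over 0.93 between the lowest and the highest library. Among 41 hairpins whose rarer strand had a summed count within 2-fold of 127, the median spread was 0.66 and 70.7% had a smaller one. The spread of miR-511 was thus within the range of hairpins of like depth, which ran from 0.20 to 2.76.

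Of 881 hairpins with both strands listed, 268 had at least 100 counts over both strands and all libraries. The 3p strand was the higher one in 110 of them, or 41.0%. The strands of miR-511 differed by a log2 ratio of 5.20, against a median size of 4.79 over these hairpins, and 53.2% of the others were less unequal. By bias toward 3p, miR-511 had rank 55 of 268. The hairpins nearest to it in this ratio were mir-466d, with 113.3 counts on the 3p strand and 2.5 on the 5p strand, mir-1982 with 99 and 2, and mir-152. mir-152 alone of the 3 is well covered, with 63621 counts on its 3p strand and 1960 on its 5p strand, a 3p share of 97.0%. mir-152, mir-1982 and mir-511 lie in introns of coding genes, Copz2, Oaz1 and Mrc1, as do 436 of the 991 hairpins matched to the annotation. No host gene is given here for mir-466d, which does not mean that it lies outside introns.

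**Figure D3:**
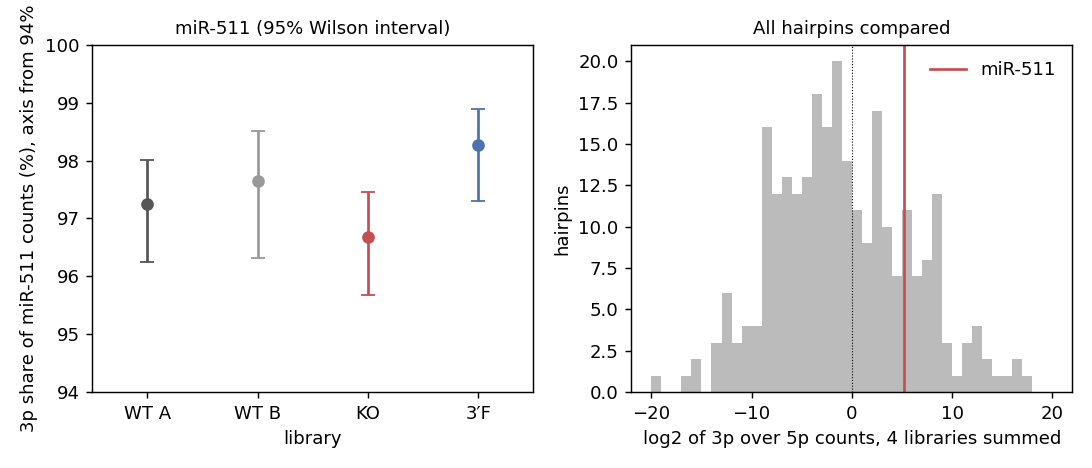
Left, the 3p share of miR-511 counts in percent in each library with 95% Wilson intervals, on an axis that starts at 94%; right, the log2 ratio of 3p over 5p counts for the 268 hairpins compared, with miR-511 as a vertical line. The share lies between 96.7% and 98.3%, and the miR-511 ratio of 5.20 falls within the body of the hairpins with a higher 3p strand.

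The comparison of KO and 3′F with WT asks whether loss of miR-146a, or exchange of its 3′ part, is accompanied by another level of miR-511. Each ratio is log2(RPM + 1) in the mutant minus its average in the WT libraries, a scale on which the change of the rare 5p strand is understated. For miR-511-3p the KO value was 0.18 and the 3′F value -0.10. Between single libraries, WT B differed from WT A by -0.22. On that footing KO differed by 0.07 from WT A and by 0.30 from WT B, and 3′F by -0.21 from WT A and by 0.02 from WT B. KO stood above both WT libraries at 80.8 RPM, and 3′F stood between them. With edgeR's TMM factors, and with miR-21a left out of the totals, KO instead stood between the WT libraries (78.9 against 79.8 and 61.9, and 121 against 124 and 99.7). Without WT A the ratio in 3′F was 0.02, so its sign rested on the WT library used.

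Changed miRNAs are those that lay 2-fold or more above each WT library, or 2-fold or more below each. Of the 251 expressed miRNAs, 3.59% were called in KO and 0.797% in 3′F. miR-146a-5p itself was among those called in both mutants, and miR-511-3p was called in neither. By size, 39.4% of the expressed miRNAs had a smaller change than miR-511-3p in KO and 31.9% in 3′F. The median size was 0.23 in KO and 0.15 in 3′F. Its counts bound a change in KO, before the spread of cultures, to between 0.977-fold and 1.13-fold of WT A and between 1.13-fold and 1.35-fold of WT B.

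For miR-511-5p the KO value was 0.40 and the 3′F value -0.40, and the WT cultures differed by -0.30 (WT B minus WT A). It was above both WT libraries in KO and below both in 3′F. KO over WT A was 1.28-fold (exact interval 0.826 to 2.01) and KO over WT B 1.76-fold (1.01 to 3.19). 3′F over WT A was 0.541-fold (0.294 to 0.966) and 3′F over WT B 0.744-fold (0.369 to 1.5). Of these 4 ratios, KO over WT A and 3′F over WT B have intervals that include 1, and KO over WT B and 3′F over WT A do not. The intervals hold counting error alone, and a difference of either mutant from WT was not tested. With a minimum of 1 RPM, 439 miRNAs were compared, 3.87% of them were called in KO and 0.683% in 3′F, and neither strand of miR-511 was called in either mutant. Among the 133 miRNAs within 2-fold of the mean level of miR-511-5p, 73.5% of the others had a smaller change in KO and 80.3% in 3′F.

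**Figure D4:**
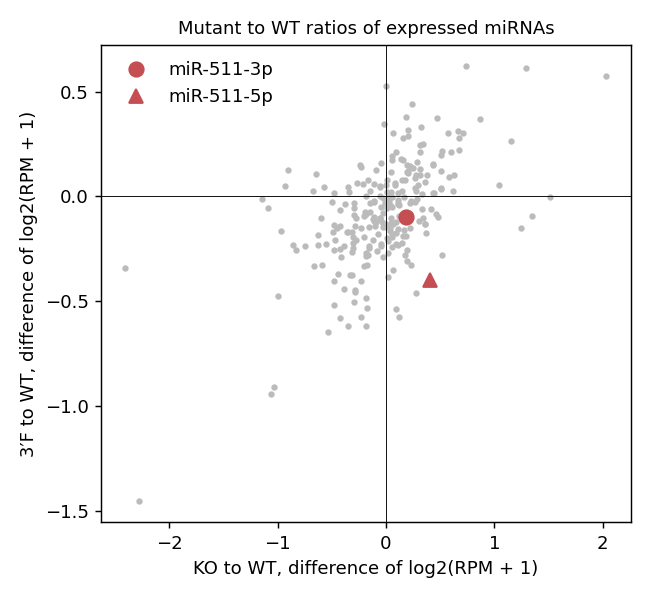
Log2 ratio to WT in KO (horizontal) and 3′F (vertical), as differences of log2(RPM + 1), for expressed miRNAs (gray, miR-146a-5p left out) and for miR-511-3p (red circle) and miR-511-5p (red triangle). The 3p strand lies near the center at 0.18 and -0.10, and the 5p strand at 0.40 and -0.40; the mutants share the WT libraries as their reference.

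The miRNAs whose levels over the 4 libraries moved most like those of miR-511-3p were miR-28a-5p, miR-186-5p, miR-99a-5p, miR-15a-5p and miR-322-5p. Likeness is the root mean square difference of log2(RPM + 1), each miRNA centered on its own mean, so the level does not enter. It was 0.029 for miR-28a-5p, 0.043 for miR-186-5p, 0.058 for miR-99a-5p and miR-15a-5p, and 0.062 for miR-322-5p. miR-28a-5p was at 46.9 RPM in WT A and 39.5 in WT B, and at 50.5 in KO and 42.1 in 3′F. miR-186-5p was more abundant, with 781 RPM in WT A and 712 in WT B, and 810.1 in KO and 699 in 3′F. All 6 were lower in WT B and 3′F than in WT A and KO. miR-28a-5p, miR-99a-5p and miR-15a-5p have fractional counts.

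These distances rest on 4 libraries and on small differences. Of the 250 other expressed miRNAs, 24 lay within 0.1 of miR-511-3p and the median distance was 0.21. Every level of a library is divided by the same total, so an error in that total would shift all its miRNAs in the same direction. The order KO, WT A, 3′F, WT B was seen in 10 of the 251 expressed miRNAs, miR-511-3p among them, which does not mark them as a group. The library totals ran in the same order, with 19087640, 17073442, 16194595 and 11410940 counts. The part of depth in these profiles was not tested.

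**Figure D5:**
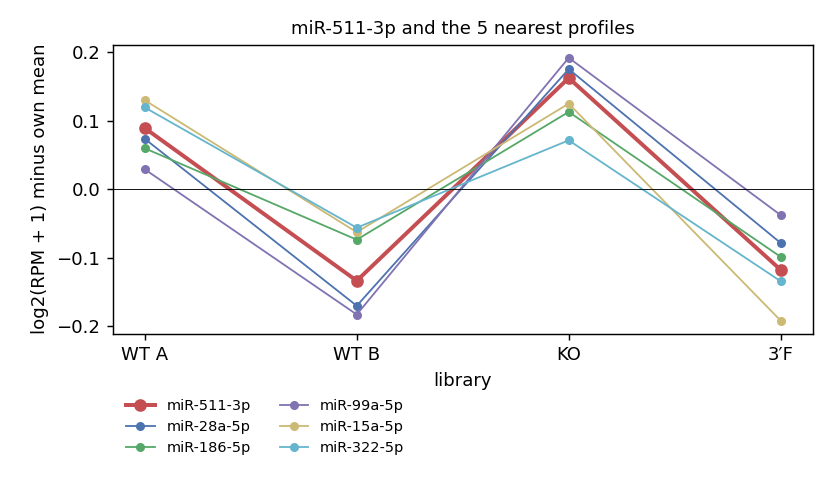
Log2(RPM + 1) minus its own mean over the 4 libraries, for miR-511-3p (thick red line) and the 5 expressed miRNAs nearest to it, by library; lines join the points of a miRNA and imply no order of libraries. All values lie between -0.19 and 0.19, and all 6 miRNAs are lower in WT B and 3′F than in WT A and KO.

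miR-511 was also set among the other miRNAs carried in introns. Of 1235 precursors in the table, 991 were matched to RefSeq hairpins by the name of the precursor or of its mature strands, and 436 of these lay wholly in an intron of a protein-coding gene on the same strand. Taking the higher strand of each hairpin, and each strand once, 76 strands of intronic hairpins were expressed, with a median of 332 RPM, beside a median of 274 RPM for 82 strands of the other matched hairpins. Of these strands, 5 are in both sets, since they come from hairpins of both kinds. Precursors that were not matched enter neither set, so both are incomplete. miR-511-3p had rank 52 of the 76 by mean level. Next to it were miR-504-5p, in an intron of Fgf13, and miR-330-5p, in an intron of Eml2, whose 5p strands are the higher ones, with log2 ratios of 3p over 5p of -7.54 and -0.25. Of the hairpins of these 76 expressed strands, 74 had a strand ratio, and among these 32 had the higher count on the 3p strand and 18 were more biased toward 3p than miR-511. In KO, 3 of the 76 strands were called changed, and in 3′F 0, near the shares of all expressed miRNAs (3.59% and 0.797%). miR-511-3p was called in neither mutant. The median log2 ratio of the 76 was 0.01 in KO and -0.08 in 3′F, equal to the 2 decimals given to the medians of all expressed miRNAs.

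Mrc1 and miR-511 are linked to alternative activation of macrophages, so miRNAs linked to alternative or to classical activation were set beside miR-511-3p, from lists drawn from general knowledge. Of 7 miRNAs linked to alternative activation, 6 were expressed, and 0 were called changed in KO or 3′F. Over all expressed miRNAs the shares called were 3.59% and 0.797%, so 0 of 6 does not set this list apart. The median log2 ratio of the 6 came to 0.10 for KO and 0.01 for 3′F, beside 0.01 and -0.08 for all expressed miRNAs. miR-378a-3p, which is reported to rise in macrophages given IL-4, was between 4638 and 5372 RPM, on average 69.4 times the level of miR-511-3p. let-7c-5p was on average 54.6 times, miR-125a-5p 24.5 times, miR-223-3p 21.3 times and miR-34a-5p 1.99 times the level of miR-511-3p, and all 5 were above it in each library. miR-132-3p, at 18.8 to 32.4 RPM, was below it in each library. miR-124-3p had 0 counts in all libraries, where 3 counts set a limit of 0.157 to 0.263 RPM.

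Of 5 miRNAs linked to classical activation, 2 were expressed, miR-155-5p and miR-125b-5p. Of these, 0 were called changed in either mutant, beside 3.59% (KO) and 0.797% (3′F) of all expressed miRNAs. The median log2 ratio of the 2 came to 0.12 for KO and -0.04 for 3′F. miR-155-5p, which is induced by LPS and targets regulators of inflammatory signaling, was the one closest in level to miR-511-3p. It was at 71.3 RPM in WT A and 70.3 in WT B, and at 55.2 in KO and 62.7 in 3′F. miR-511-3p over miR-155-5p was 1.08 in WT A and 0.934 in WT B, and 1.46 in KO and 1.06 in 3′F, highest in KO, where miR-511-3p had its highest and miR-155-5p its lowest level. miR-125b-5p was between 514 and 773 RPM and above miR-511-3p in each library. miR-147-3p (5.71 to 11.9 RPM), miR-9-5p (3.39 to 4.97) and miR-127-3p (0 to 0.09) were below it in each library.

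The labelled cell type was checked with miRNAs of blood and of other tissues. The myeloid and pan-hematopoietic miR-223-3p and miR-142a-3p were above miR-511-3p in all 4 libraries, at 1466 to 1636 and 1071 to 1721 RPM. The summed level of 3 erythroid miRNAs was 93.2 and 94.1 RPM in the WT libraries and lower in KO (36.5) and 3′F (43.3), where miR-511-3p was at 80.8 and 66.4 RPM. Most of this sum was miR-486a-5p, which has fractional counts and was called in neither mutant. miR-451a, called lower in both, was at 18.7 RPM in WT A and 30.0 in WT B, and at 4.09 in KO and 8.03 in 3′F. Lymphoid (2.0 to 4.3 RPM), stromal (5.6 to 9.2) and hepatocyte (1.1 to 1.8) sums were low, and miR-145a-5p had 0 counts in KO and 3′F. The endothelial miR-126a-3p was at 9.82 to 13.2 RPM, highest in KO. The sum of 4 epithelial miRNAs, most of it miR-200b-3p, was 599 RPM in WT A and 814 in WT B, and 428 in KO and 590.1 in 3′F. It was lowest in KO and highest in WT B, where miR-511-3p was highest and lowest, and the part of cell content in the levels of miR-511 was not tested. Fewer cells that make a miRNA and less of it per cell cannot be told apart in bulk RNA.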

How the data were processed

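Total RNA of BMDM cultures was made into NEBNext small RNA libraries of inserts of roughly 18 to 35 nt. Per the labels, the submitters' processing notes name cutadapt 1.8.3. The aligner, counter, genome build and miRNA release are not given in the sources used here. The authors deposited estimated counts, in which reads that fit several lines are shared out as fractions, and RPM, in which a count is expressed per 1000000 of the counts over the library's 2129 lines.

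Where a mature miRNA occupied several lines, the line with most counts over the libraries was used. Levels are deposited RPM, ratios use a pseudocount of 1, and strand ratios 0.5 added to each count. Wilson intervals, exact (Clopper-Pearson) intervals of count ratios and calls at 2-fold from both WT libraries were computed in Python 3.11.15 with numpy 2.4.6, pandas 2.3.3 and scipy 1.17.1. The calls were tested on simulated libraries of 1979 miRNAs for KO against WT, in which 100.0% of 50 expressed miRNAs changed 4-fold were recovered and 0 of 205 unchanged ones were called. The planted changes lay well beyond the 2-fold limit, and the simulated KO was given the spread of the WT libraries. The simulation thus checks that the calls run as meant and does not cover changes as small as those of miR-511. Other scalings used edgeR 4.0.16 and DESeq2 1.42.0 in R 4.3.3, on counts rounded for DESeq2. Positions come from GENCODE vM21 and RefSeq (GRCm38.p6), matched by name, and the fold from RNAfold 2.7.2. The table holds no coordinates.

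The miRNAs named are both strands of miR-511, the 3 miRNAs on each side of them in level, the 5 nearest profiles, those sharing bases 2 to 7, the 3 nearest strand ratios and the listed sets, whose membership was not checked against a source. miR-511, the lists and the rules were chosen with earlier results of these data known. The mRNA and protein data of the study were not used here.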

Additional observations from a re-analysis of the deposited data

Results flagged for a closer look

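miR-511-5p was marked because the mutants lay on opposite sides of both WT libraries. Its log2 ratio to WT was 0.40 in KO (53 counts) and -0.40 in 3′F (19 counts), and this difference between the mutants was not tested, since each has 1 library. From the counts alone, KO over 3′F was 2.37-fold (exact interval 1.38 to 4.23). These are the highest and the lowest of the 4 libraries, picked for lying apart, so the interval is no test of a difference. The 3p share of miR-511 was marked for the same reason, with 96.7% in KO, below both WT libraries, and 98.3% in 3′F, above both. It rests on the same 5p counts, so it is no separate observation, and it was not tested either. For miR-511-3p the mutants were not on opposite sides of both WT libraries.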

How the results depend on the processing

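No paired analysis was possible because KO and 3′F each share only 1 culture letter, A, with the WT libraries, and the sources used here do not say that the letter marks a shared day or batch. Against WT A alone the log2 ratio of miR-511-3p was 0.07 in KO and -0.21 in 3′F, and that of miR-511-5p 0.25 and -0.55. The alternatives were other scalings, the smaller pseudocount of 0.1, leaving out WT A or WT B, other expression minimums and thresholds, every deposited line, and other sets of hairpins. Leaving the lines of miR-21a out of the totals was added after seeing the data. Of 74 values under an alternative, 61 stayed within the spread of the WT libraries or, for counts, ranks and percentages of hairpins, within 1.5 times. For levels, log2 ratios and the 3p share, that spread is the SD of the 2 WT libraries. Leaving out 1 of them shifts the WT mean by less than this SD whatever the values. These alternatives were thus bound to stay within it and are no check. With miR-21a left out of the totals, the WT level rose by construction, to 112 RPM for miR-511-3p and 2.94 RPM for miR-511-5p. The log2 ratio of miR-511-5p in 3′F was -0.62 when 0.1 was added in place of 1, since the smaller pseudocount shrinks low levels less. Over all alternatives the ratio of miR-511-3p ran from 0.07 to 0.30 in KO and from -0.21 to 0.02 in 3′F, and that of miR-511-5p from 0.25 to 0.56 and from -0.62 to -0.25. Counts of changed miRNAs moved most. In KO there were 9, or 27 for a threshold of 1.5-fold and 4 for one of 3-fold. Requiring 1 RPM, or no level at all, gave 17 and requiring 100 RPM gave 3, while dropping WT B or WT A gave 13 or 15. In 3′F there were 2, or 6 for a threshold of 1.5-fold, 1 for one of 3-fold and 1 when 100 RPM was required, and dropping WT A or WT B gave 2 or 5. These changes follow from the number of miRNAs compared, the threshold or the libraries that a call must clear. The depth of miR-511-5p, 18 to 53 counts, limits what can be said of its level and of the strand ratio.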
